A study of Mus musculus with 3 samples.

Results

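The genes described here make the amyloid precursor protein and its relatives, the enzymes that cut it, and tau: App, Aplp1 and Aplp2; Adam10 and Bace1; Ncstn, Psen2 and Aph1a; and Mapt. They were chosen by name, and all 9 were found among the 32531 gene symbols of the count tables. The RNA came from prefrontal cortex of untreated Slc17a6-TRAP JX883 mice, whose age the labels do not give, and in which an EGFP-tagged ribosomal protein L10a is made under Slc17a6, the gene of the vesicular glutamate transporter VGLUT2. Antibodies to EGFP pulled out the tagged ribosomes and the RNA bound to them was sequenced, which gave 3 libraries in 1 group, each from 3 pooled mice by the labels. With no input RNA and no other genotype or treatment analysed here, each value is a level in purified RNA and not an enrichment, and the comparisons are between genes within a library and of each gene between libraries. In RNA from many cells, fewer cells that make a transcript and less RNA per cell cannot be told apart.

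The amyloid precursor protein is a membrane protein of neurons that can be cut along alternative routes. Alpha secretase, mainly ADAM10 in neurons, cuts inside the amyloid beta sequence; beta secretase, BACE1, cuts at its start; and gamma secretase, a membrane complex of a presenilin, nicastrin, an APH1 protein and PEN-2, then cuts the remaining stub within the membrane. APLP1 and APLP2 are cut by some of the same enzymes but hold no amyloid beta sequence. Tau, the product of Mapt, binds microtubules in axons and forms the other hallmark deposit of Alzheimer disease.

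The stretch of App where these enzymes act is shown with the positions aligned to it in its relatives, since the level of App is the level of the only member that encodes amyloid beta. The bases are coding sequence of GENCODE M21 transcripts on mm10. The App stretch lies on the minus strand within chr16:84962794-84965729 and runs from 3 codons before the beta cut to codon 42 of the peptide. Capitals mark the codons on each side of the beta cut, codons 16 and 17 on each side of the alpha cut, and codons 40 and 42, after which gamma secretase can release the peptide. The aligned stretches, shown in lower case, lie on the minus strand within chr7:30435551-30435984 for Aplp1 and chr9:31151909-31153434 for Aplp2.
App: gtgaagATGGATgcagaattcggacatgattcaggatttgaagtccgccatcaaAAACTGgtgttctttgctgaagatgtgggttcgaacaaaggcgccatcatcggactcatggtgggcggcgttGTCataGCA
Aplp1: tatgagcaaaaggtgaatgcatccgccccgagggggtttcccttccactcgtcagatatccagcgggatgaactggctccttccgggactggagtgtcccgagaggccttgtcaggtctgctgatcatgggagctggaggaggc
Aplp2: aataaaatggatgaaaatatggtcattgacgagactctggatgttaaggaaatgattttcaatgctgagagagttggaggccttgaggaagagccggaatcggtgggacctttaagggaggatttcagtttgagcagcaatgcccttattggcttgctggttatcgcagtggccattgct

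Over the aligned codons of this stretch, Aplp1 matched App at 35.96% of 114 bases and Aplp2 at 50.4% of 129 bases. Over the whole coding sequence the matches were 51.8% of 1848 aligned bases for Aplp1 and 62.4% of 2109 for Aplp2. A short part of the cytoplasmic end was picked because App, Aplp1 and Aplp2 encode the same motif there. A high match over it was thus partly set by that choice, and the rest of the cytoplasmic end was not compared. The 24 bases printed next for each gene encode the tail motif that adaptor proteins such as those of Apba1 and Apbb1 bind, with the asparagine, proline, threonine and tyrosine codons in capitals, and Aplp1 matched App at 70.8% of them and Aplp2 at 79.2%. They lie at chr16:84955355-84955378, chr7:30435314-30435337 and chr9:31150895-31150918.
App: ggatatgagAATCCAACTTACaag
Aplp1: ggctatgagAACCCCACCTACcgc
Aplp2: ggttatgaaAACCCAACCTACaaa

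The counts are summed over all transcripts of a gene, so isoforms were not told apart. The exon of App that encodes a protease inhibitor domain is in 5 of its 6 annotated coding transcripts, and a neighbouring exon of 57 bases is in 3 of them.

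Named genes held 12592174, 8964137 and 12648577 counts in replicates 1, 2 and 3. Neuronal markers were high. The 4 pan-neuronal markers summed to between 25876 and 27917 CPM, a unit of counts scaled to the library's total over named genes. The synaptic gene Snap25 made up most of that sum. The 6 glutamatergic markers summed to between 4304 and 4745 CPM, and Slc17a6 itself had 857, 723 and 913 CPM in replicates 1, 2 and 3. The 6 GABAergic markers also reached 1 CPM in each library, and summed to between 904 and 970 CPM. Camk2a made up most of the glutamatergic sum and Gad2 most of the GABAergic sum. Summed markers came to 1014 to 1166 CPM for astrocytes, of which Slc1a2 made up most, to 426 to 587 CPM for oligodendrocytes, to 56.1 to 84.0 CPM for their precursors, to 30.9 to 35.9 CPM for microglia with C1qa at 0 counts, and to 7.25 to 9.25 CPM for endothelium. How much these cells added to any value below was not tested.

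Levels of different genes were compared in TPM, for which counts are divided by the length of a gene's merged exons before they are scaled to the same total in every library. Aplp1 stood highest of the 9, and App and Aplp2 followed with ranges that overlapped. Mapt came next, then Ncstn, then Adam10 and Bace1 at a similar level, then Psen2, and Aph1a last. Of the 36 pairs of members, 35 had the same direction in 3 of 3 libraries and 34 had ranges that did not overlap. The exact sign-flip permutation test over 3 libraries cannot give a p below 0.25, so no pair could pass 0.05, and adjusted p was 0.257 for these 35 pairs and 0.5 for App against Aplp2.

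**Figure D1:**
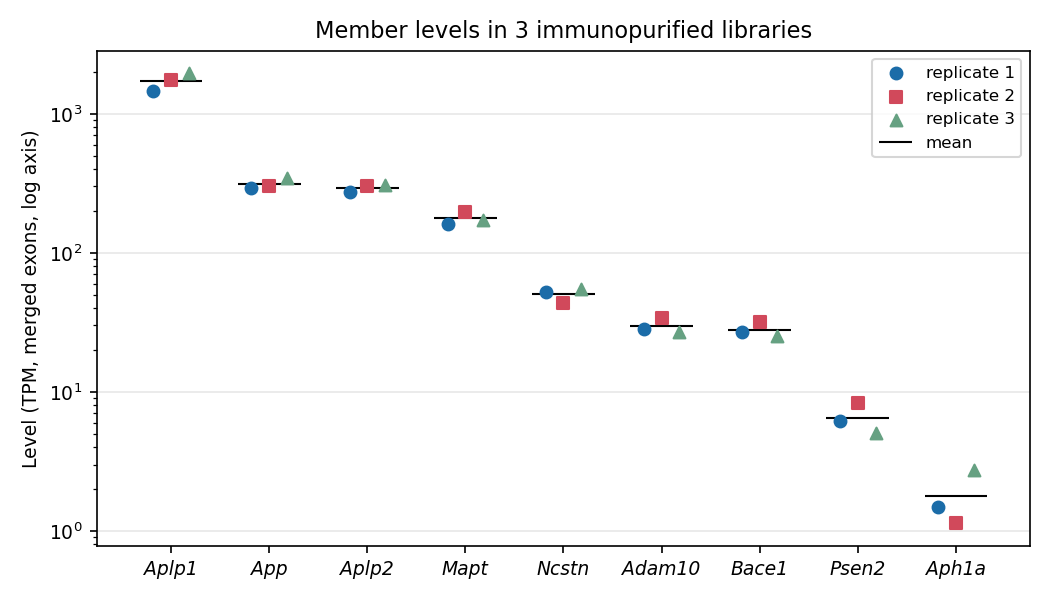
Level of each of the 9 genes in each library, in TPM from merged exon lengths on a log axis; points are the 3 libraries and lines their means. Means run from 1724 TPM for Aplp1 to 1.79 TPM for Aph1a, and the points of App and Aplp2 and of Adam10 and Bace1 overlap.

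Of the 9 members, 4 were at or above 100 CPM in every library (App, Aplp1, Aplp2 and Mapt), where 13.1% of the 14774 genes with at least 10 counts in a library were. The median member stood at 50.2 TPM, and the median over all tested genes was 19.7 TPM. The genes of the precursor family and tau were the abundant members, and those of the enzymes ranked from 3853 for Ncstn to 12341 for Aph1a by TPM.

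Of the amyloid precursor family, App (ENSMUSG00000022892.11, chr16:84949685-85173766, minus strand) had 9588, 6964 and 11367 counts in replicates 1, 2 and 3. These equal 292, 300 and 347 TPM, a mean of 313 ± 29.4 TPM (SD, n = 3), rank 531 of 16014 genes with a TPM value. Replicate 3 was the highest and the other libraries lay close together. By likeness of level, taken as the smallest root mean square difference in log2 TPM over the 3 libraries among 23160 genes, the nearest genes included the ribosomal protein genes Rps6 (0.06) and Rpl6 (0.07).

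Aplp1, whose protein is found in neurons and is known in adhesion at synapses, lies at chr7:30434982-30445535 on the minus strand (ENSMUSG00000006651.8). It had 11134, 9449 and 14896 counts, equal to 1462, 1753 and 1956 TPM in replicates 1, 2 and 3. Its mean of 1724 ± 248 TPM (SD, n = 3) placed it at rank 52. Replicate 1 was the lowest library and replicate 3 the highest, in the order in which the summed oligodendrocyte markers stood (426, 572 and 587 CPM, 6 of 6 at 1 CPM or more). The summed glutamatergic markers stood in that order too (4304, 4439 and 4745 CPM), while Mbp, taken alone, was highest in replicate 2. The part of any of these cells in the Aplp1 values was not tested. Aplp1 transcripts are also made by oligodendrocytes.

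Aplp2 (ENSMUSG00000031996.17, chr9:31149557-31211815, minus strand) encodes the relative that is made in most tissues and can stand in for APP in mouse development. Its level was 273, 303 and 305 TPM in replicates 1, 2 and 3, from 4056, 3185 and 4524 counts. The mean was 294 ± 17.8 TPM (SD, n = 3), the smallest relative spread of the 9 genes, with a coefficient of variation of 5.76% in CPM.

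App lay below Aplp1 in 3 of 3 libraries, at 313 TPM for App against 1724 TPM for Aplp1, a log2 difference of -2.45 ± 0.12 (SD, n = 3; exact sign-flip test, p = 0.25). App and Aplp2 did not separate, with a log2 difference of 0.09 ± 0.10, App being higher in 2 of 3 libraries (exact sign-flip test, p = 0.5). In TPM, App held 13.5% ± 0.86 of the family, Aplp1 73.8% ± 1.5 and Aplp2 12.7% ± 0.91 (SD, n = 3). The size of both differences depended on the length given to App, whose annotated exons merge to 12996 bases while its principal transcript has 3176. In CPM, with no length, App held 37.0%, Aplp1 47.2% and Aplp2 15.8%, and with principal transcripts the log2 difference was -0.79 for App against Aplp1 and 1.43 for App against Aplp2.

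**Figure D2:**
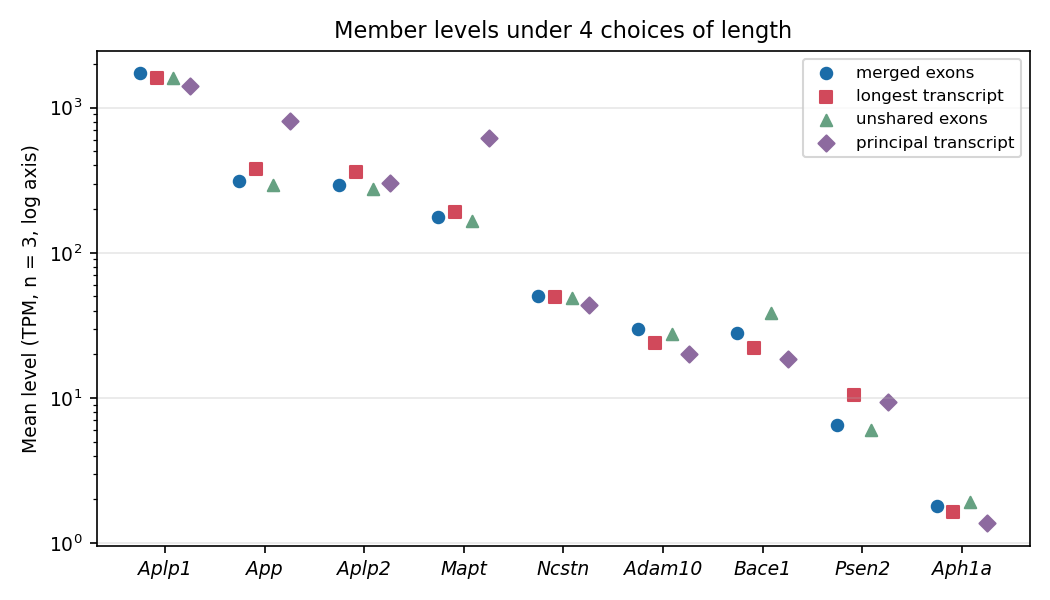
Mean level of each of the 9 genes over 3 libraries in TPM on a log axis, computed with merged exons, the longest transcript, exonic bases not shared with another gene, or principal transcripts. Principal transcripts put App at 812 TPM and Mapt at 622 TPM, while Aplp1 stayed highest under each of the 4 choices and Aph1a lowest.

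The alpha and beta secretases stood at a similar level, and App exceeded Adam10 by 3.38 ± 0.27 and Bace1 by 3.47 ± 0.28 log2 units (SD, n = 3). Adam10 (ENSMUSG00000054693.14, chr9:70678997-70780229, plus strand), a membrane metalloprotease that also sheds Notch and cadherins, had 28.5, 33.9 and 26.9 TPM in replicates 1, 2 and 3, from 353, 298 and 333 counts. Bace1 (ENSMUSG00000032086.12, chr9:45838580-45864399, plus strand), a membrane aspartyl protease, had 26.8, 31.9 and 25.1 TPM from 429, 362 and 402 counts. Both genes were highest in replicate 2 and lowest in replicate 3, and their ranges overlap.

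Adam10 averaged 29.8 ± 3.72 TPM and Bace1 27.9 ± 3.56 TPM (SD, n = 3 each). The log2 difference of Adam10 minus Bace1 was 0.09 ± 0.005, above 0 in all 3 libraries (exact sign-flip test, p = 0.25). That spread between libraries is smaller than the counting error of the difference within a library, 0.10 to 0.11 log2 units, so it does not describe the precision. The direction rested on length: it was -0.27 in CPM and -0.47 with exonic bases not shared with another gene. Of the exonic bases of Bace1, 32.5% are also covered by other genes on the opposite strand, among them Rnf214, and all of its last 500 transcript bases are. Rnf214 stood at 116 ± 11.6 CPM, above Bace1 at 35.4 ± 4.45 CPM. No source used here gives the strand setting of the counting, and the part of this overlap in the level of Bace1 was not tested.

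The paralogs of these enzymes were lower. Adam9 stood at 17.2 ± 1.11 TPM and Adam17, the protease that releases tumour necrosis factor, at 3.36 ± 1.44 TPM (SD, n = 3 each). Adam10 exceeded Adam17 by 3.03 ± 0.54 log2 units in all 3 libraries (exact sign-flip test, p = 0.25). Of the last 500 transcript bases of Adam17, 62.2% are also covered by another gene, and the part of this overlap in its level was not tested. Bace2, the beta secretase relative best known outside the brain, had 25 counts in replicate 1, 1 in replicate 2 and 2 in replicate 3, so that replicate 1 held nearly all of them.

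**Figure D3:**
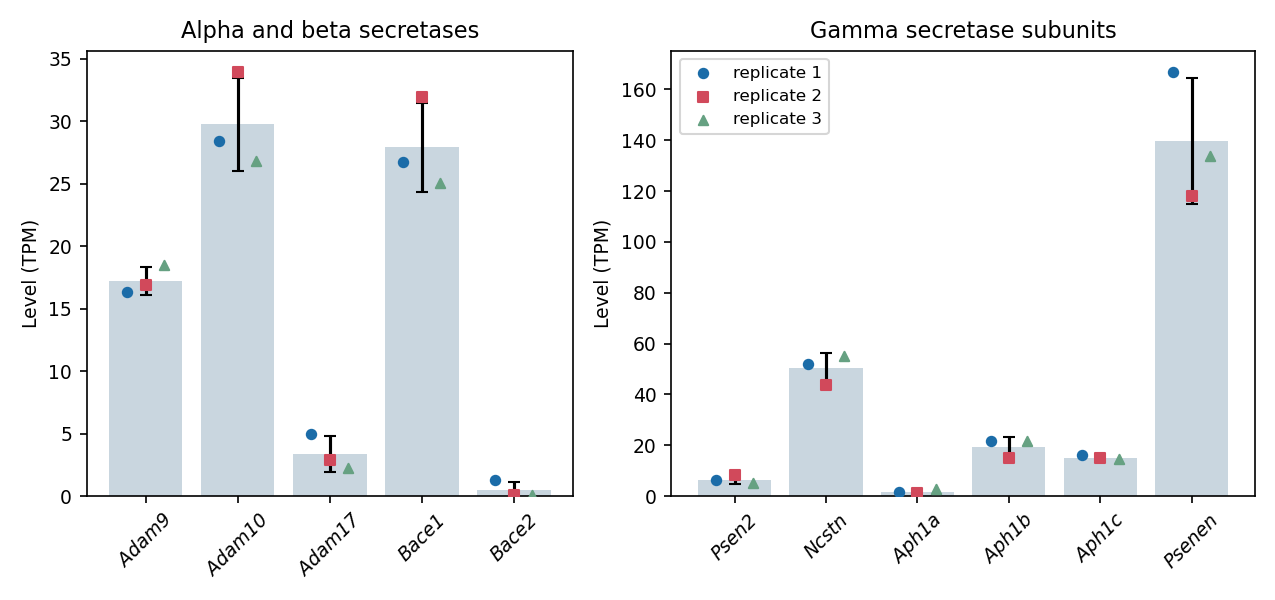
Levels of alpha and beta secretase genes (left) and the gamma secretase subunit genes reported here (right) in TPM; bars are means, error bars the SD over 3 libraries, and points the libraries. Adam10 averages 29.8 and Bace1 27.9 TPM, and Aph1a is the lowest gamma secretase subunit shown at 1.79 TPM; the error bar of Bace2 is cut at the axis.

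Among gamma secretase subunits, Ncstn (ENSMUSG00000003458.12, chr1:172066013-172082795, minus strand) encodes nicastrin, the large glycoprotein that takes in the substrate stub. It had 520, 310 and 553 counts, equal to 51.8, 43.6 and 55.1 TPM in replicates 1, 2 and 3, with replicate 2 lowest. Psen2 (ENSMUSG00000010609.15, chr1:180227004-180263438, minus strand), the catalytic presenilin whose complexes sit mainly in late endosomes and lysosomes, had 68, 64 and 55 counts, equal to 6.22, 8.27 and 5.03 TPM. Replicate 2 was its highest library. The 95% exact Poisson intervals of its counts, which cover counting error only, ran from 4.19 to 6.85 CPM, from 5.50 to 9.12 CPM and from 3.28 to 5.66 CPM, and each pair of them overlapped.

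Aph1a (ENSMUSG00000015750.15, chr3:95893969-95898288, plus strand), a scaffold subunit, had only 13, 7 and 24 counts, equal to 1.49, 1.14 and 2.76 TPM. The 95% exact Poisson intervals were 0.55 to 1.77, 0.314 to 1.61 and 1.22 to 2.82 CPM in replicates 1, 2 and 3, and each pair of them overlapped. Overlap of intervals is not a test of a difference. For Aph1a and Psen2 it thus does not show that counting error covers the spread between libraries. The opposite-strand gene Car14 covers 12.9% of the exonic bases of Aph1a but 84.8% of its last 500 transcript bases, and Car14 itself had 4, 0 and 7 counts. Such an overlap was uncommon: 4.16% of 13040 tested protein-coding genes share 80% or more of their last 500 bases, and their median was 15.8 TPM, where genes sharing none had 21.4 TPM. Whether reads of Aph1a were set aside as shared by genes, which took 2.76% ± 0.08 of all counts (SD, n = 3), was not tested.

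**Figure D4:**
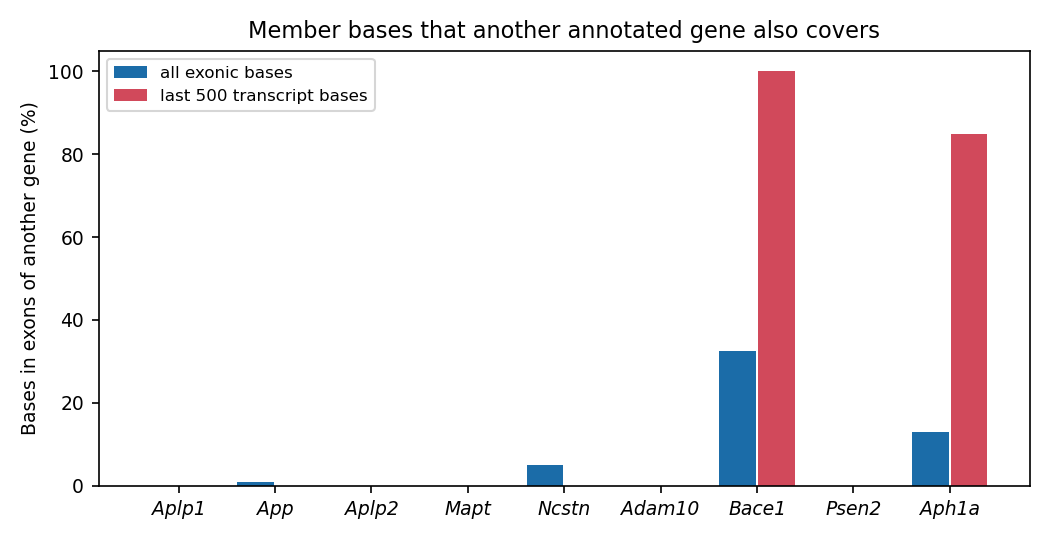
Share of each gene's exonic bases, and of the last 500 bases of its longest coding transcript, that lie within annotated exons of another gene on either strand (percent). Bace1 at 100% and Aph1a at 84.8% stand apart in the last 500 bases, where the other 7 genes are at 0.

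Ncstn averaged 50.2 ± 5.91 TPM against 1.79 ± 0.85 TPM for Aph1a, a log2 difference of 4.52 ± 0.37 in all 3 libraries (exact sign-flip test, p = 0.25). Against Psen2, at 6.51 ± 1.64 TPM, Ncstn was higher by 2.87 ± 0.50 (SD, n = 3; same test and p). Psen2 in turn exceeded Aph1a by 1.65 ± 0.83. Proteins of the complex assemble in equal numbers, but Psen2 and Aph1a are not the only genes of their subunits. These differences between single genes thus do not give the balance of the complex's parts.

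Psenen, the gene of PEN-2, the subunit that readies presenilin for its own cleavage, was the highest subunit gene at 139.6 ± 24.9 TPM. Its merged exons have 1275 bases, and in CPM it stood at 35.6 ± 6.45, against 39.9 ± 4.73 for Ncstn. Aph1b and Aph1c, the neighbouring duplicated APH1 genes of rodents, stood at 19.4 ± 3.84 and 15.1 ± 0.78 TPM. Reads placed at several positions stand in a line of their own in the tables, so the levels of these copies are uncertain. Aph1a minus Aph1b was -3.16 ± 0.37 log2 units, with Aph1a lower in all 3 libraries (exact sign-flip test, p = 0.25).

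Mapt (ENSMUSG00000018411.17, chr11:104231390-104332090, plus strand) had 162, 197 and 172 TPM in replicates 1, 2 and 3, from 3078, 2655 and 3276 counts. Replicate 2 was highest, and the mean was 177 ± 18.2 TPM (SD, n = 3), rank 1132. App stood above Mapt, at 313 TPM for App and 177 TPM for Mapt, by 0.82 ± 0.20 log2 units in all 3 libraries (exact sign-flip test, p = 0.25). Aplp2 exceeded Mapt by 0.73 ± 0.10, but was the lower when principal transcripts were used, since the one listed for Mapt has 1362 bases and its merged exons 7531. The nearest genes in level were Atp6v1f, a subunit of the vesicular proton pump (0.02 root mean square log2 units), Faim2 (0.03) and Tmem178 (0.04).

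Among structural microtubule-associated proteins, tau was not the leading message. Map1b, a large protein of growing and mature axons, stood at 1194 ± 129 TPM and Map1a, its relative of mature dendrites, at 416 ± 63.7 TPM. Mapt minus Map1b was -2.75 ± 0.18 log2 units, and Mapt minus Map2, the dendritic relative of tau at 208 ± 22.8 TPM, was -0.23 ± 0.23, each below 0 in all 3 libraries (exact sign-flip test, p = 0.25). Dcx, a marker of young migrating neurons, was lowest of the 8 at 8.43 ± 2.27 TPM. The difference of Mapt from Map2 was 0.84 with principal transcripts, where Mapt was the higher in all 3 libraries, and -0.10 without replicate 1. Mapt held 6.50% ± 0.62 of the summed TPM of these 8 genes and 3.81% ± 0.41 of their summed CPM.

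Between libraries, 0 of 9 members were called as varying by edgeR's goodness of fit against genes of like abundance, with Benjamini-Hochberg adjustment at 0.05, where 36 of 14774 genes (0.244%) were called. At an unadjusted p under 0.05 the count was also 0 of 9 in edgeR and 1 of 9 in a limma variance test, the 1 being Aplp1 (limma adjusted p = 0.937). Over all tested genes these counts were 1066 of 14774 in edgeR and 716 of 14774 in limma. Aplp1 also had the smallest p of the members in edgeR (edgeR adjusted p = 0.906). Its highest library, replicate 3, stood at 1.33 times its lowest, replicate 1, in CPM. This test does not show that the levels were equal: the trended biological coefficient of variation, against which a gene is set, was 10.5% for Aplp1 but 37.1% for Psen2 and 76.7% for Aph1a.

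The median coefficient of variation was 12.3% over the 9 members and 19.3% over all tested genes. Over genes with at least 100 counts in every library it was 11.9% for the 7 such members and 12.1% for the 8204 such genes. The largest ratios of highest to lowest library were those of the members with the fewest counts, 2.43 for Aph1a and 1.64 for Psen2. For 5 of 9 members replicate 3 was highest, for 4 replicate 2 and for 0 replicate 1, where over all tested genes these shares were 33.2%, 32.8% and 34.1%. Adam10, Bace1, Psen2 and Mapt were highest in replicate 2, while App, Aplp1, Aplp2, Ncstn and Aph1a were highest in replicate 3.

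**Figure D5:**
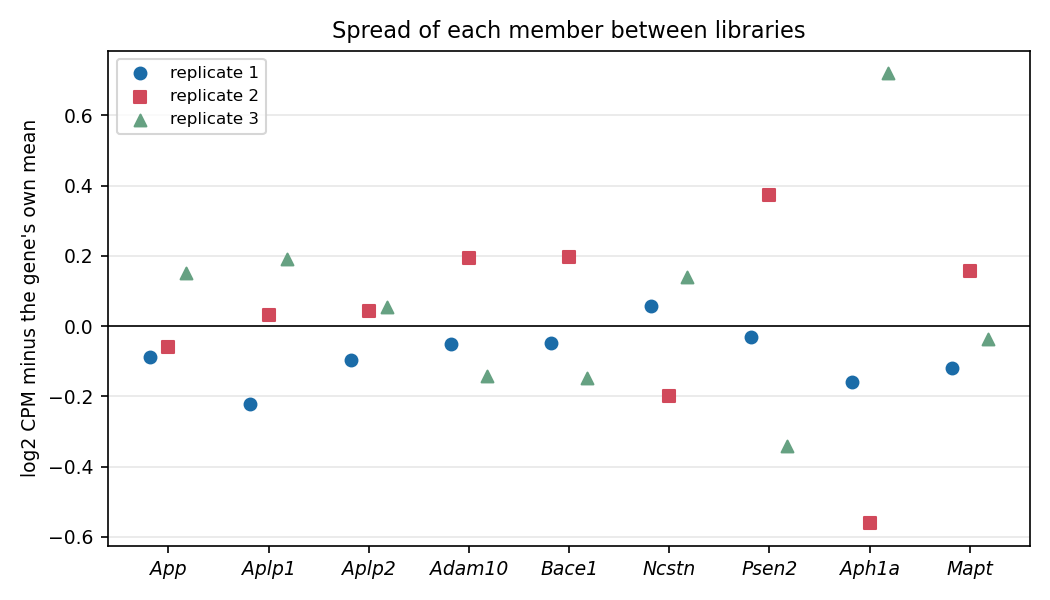
Log2 CPM of each gene in each library minus that gene's mean over the 3 libraries; points are libraries. The members with over 100 counts in each library lie close to their mean, and Psen2 and Aph1a, with the fewest counts, spread further.

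Other genes of the pathway came from 12 lists of known partners. Of the 110 listed genes that are not members, 104 reached 1 CPM in every library, 108 were tested, and 0 were called as varying in edgeR (adjusted p of 0.05), with 1 at an unadjusted p under 0.05. That gene was Srsf6, a splicing factor, with 34.0, 17.4 and 33.0 CPM in replicates 1, 2 and 3 (edgeR adjusted p = 0.626). Over all genes 1066 of 14774 had an unadjusted p under 0.05 in edgeR. The share of all genes at 1 CPM in every library is not given here. The counts at 1 CPM, here and for the lists below, thus do not set these genes apart from others.

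Of 22 APP adaptor and trafficking genes, all reached 1 CPM in every library. Klc1, a kinesin light chain, led at 709 ± 34.6 TPM, followed by Itm2b at 468 ± 27.2 TPM, whose product BRI2 binds APP, and Apba3 was lowest at 3.07 ± 0.44 TPM. Of 13 secretase regulators, 12 reached 1 CPM in every library. Reticulons led them, Rtn1 at 2659 ± 22.5 TPM and Rtn3, whose product binds and restrains BACE1, at 1686 ± 59.1 TPM (SD, n = 3 each). Tspan15, a tetraspanin partner of ADAM10, was lowest at 1.07 ± 0.58 TPM.

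All 15 other substrates of the secretases reached 1 CPM in every library. The prion protein gene Prnp stood at 547 ± 70.7 TPM and the chemokine gene Cx3cl1 at 404.5 ± 53.9 TPM, while Notch1, the classical gamma secretase substrate, was lowest at 1.005 ± 0.046 TPM, with 82.8% of its last 500 transcript bases also covered by another gene. Of the 6 enzymes that can degrade amyloid beta, the lysosomal protease gene Ctsd stood at 333 ± 16.3 TPM, Ece1 at 76.8 ± 4.54, the insulin-degrading enzyme gene Ide at 54.6 ± 7.91, Ece2 at 13.8 ± 4.54, Ace at 10.5 ± 2.23 and the neprilysin gene Mme at 9.29 ± 3.23 TPM. Of exonic bases, 34.4% of Ctsd and 57.5% of Ece2 are also covered by another gene, which makes these levels uncertain.

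All 15 tau kinases and activators reached 1 CPM in every library, led by Gsk3b at 424 ± 11.3 TPM and by Cdk5r2, an activator of the kinase CDK5, at 394 ± 26.2 TPM, with the tau tubulin kinase gene Ttbk1 lowest at 22.9 ± 4.39 TPM. All 10 genes of the tau phosphatase list did so too. Ppp2r2c, a regulatory subunit of protein phosphatase 2A, led at 761 ± 26.7 TPM, ahead of the calcineurin subunit gene Ppp3ca at 569 ± 40.1 TPM. The kinase list had a median of 104.8 TPM and the phosphatase list one of 165 TPM, where the median of all tested genes was 19.7 TPM. With no length the order was the other, at a median of 154 CPM for the kinase list and 140.0 CPM for the phosphatase list.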

How the data were processed

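Each library's table, as deposited by the authors, holds raw counts by gene symbol and the summary lines of HTSeq, which took 27.8% ± 0.56 of all counts (SD, n = 3) and were left out. The submitters' processing notes name STAR 2.0.0e, HTSeq and mm10 but give no settings. Nothing says whether the pools of mice were prepared apart, so p-values measure the spread between these samples. GENCODE M21 (mm10) gave positions and lengths, by symbol, for 87.1% of symbols with a count. Library totals set the precision, and intervals cover counting error only.

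CPM used named genes. TPM used merged exons, and differences log2(TPM + 0.5). Variation between libraries was tested in edgeR 4.0.16 by how well a model with only an intercept fitted (TMM, trended dispersion, chi-square with 2 degrees of freedom, genes with at least 10 counts in a library), tested on simulated data. Differences between genes used an exact two-sided sign-flip test, adjusted over 36 pairs, and separately over 7 pairs with genes outside the 9. Alternatives used limma 3.58.1, DESeq2 1.42.0 size factors, other lengths, pseudocounts, count minimums and replicates left out; principal transcripts and the overlap of the last 500 bases were chosen after seeing the data. Scripts ran in R 4.3.3 and Python 3.11.15 with scipy 1.17.1, numpy 2.4.6 and pandas 2.3.3.

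The genes, lists and tests were chosen with earlier results of these data known. Named were all 9 members, all genes of lists of 6 or fewer, otherwise the 2 highest and the lowest by TPM, and the 3 nearest genes in level to App and Mapt. Some genes and 1 sequence that this rule or these lists hold are not reported here. Marker lists are given as sums, but some single markers, among them Mbp and the astrocyte markers, were also named with their values known. Aph1b, Aph1c, Map2, Car14, Rnf214 and Srsf6 lie outside this rule and were named with their values known.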

Additional observations from a re-analysis of the deposited data

How the results depend on the processing

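The count of 0 members called as varying was the same under each alternative run, although a minimum of 50 counts left 8 of them tested. Over all genes, 36 were called, against 1097 with a common dispersion in edgeR and 12 in the limma variance test, and 16 without replicate 1, 16 without replicate 2 and 21 without replicate 3, where fewer samples were fitted. With the common dispersion, Bace2 was the 1 listed gene called. Adam10 minus Bace1 reversed to -0.47 with unshared exons, where Bace1 lost length and Adam10 kept its own. It reversed to -0.27 in CPM, where no length is used and Bace1 had more counts than Adam10 in each library. App against Aplp1, Aplp2 and Mapt and Ncstn against Psen2 and Aph1a kept their direction under the alternatives run, with App minus Aplp1 between -2.52 and -0.35 and App minus Aplp2 between 0.04 and 1.43, where 0.04 was the value without replicate 3. Of 9 further differences in the text, rerun after seeing the data, 6 kept their direction; Aplp2 minus Mapt reversed to -1.04 and Mapt minus Map2 to 0.84 with principal transcripts, and Ncstn minus Psenen to 0.17 in CPM. Between 34 and 36 of 36 pairs kept 1 direction in every library. Mean TPM moved by more than 1 SD for 5 of 9 members with the longest transcript, 2 with unshared exons and 7 with principal transcripts, and for 0 under other scalings or without a replicate. The ribosomal RNA precursor gene Rn45s had no length, so leaving it out could not change a TPM. Depth limits Aph1a, at 7 to 24 counts, and Psen2, at 55 to 68. No paired analysis was possible because there is 1 group.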

Other observations

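Genes tied to Alzheimer disease through glia and lipid transport, which entered the counts over the 110 listed genes but were not described one by one, were measured in the same libraries. Clu, which encodes the chaperone clusterin, stood at 214 ± 22.6 TPM, and Apoe, the main lipid carrier of astrocytes, at 64.8, 94.2 and 107 TPM in replicates 1, 2 and 3. The microglial receptor gene Trem2 had 0.13 ± 0.17 TPM from 4, 0 and 1 counts in replicates 1, 2 and 3. Of the 7 genes of this list 4 reached 1 CPM in every library, and 0 of the 6 tested were called as varying in edgeR, with 0 at an unadjusted p under 0.05. Apoe stood lowest in replicate 1. The astrocyte markers did not share 1 order: Aqp4, Gfap, Gja1 and Slc1a2 were also lowest in replicate 1, Slc1a3 was lowest in replicate 2 and Aldh1l1 in replicate 3. The part of other cells in the level of Apoe was not tested.

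Of the regulators of Mapt splicing, 1 of 8 was below 1 CPM; Hnrnpa2b1 was highest at 362 ± 22.0 TPM, ahead of Srsf2 at 201 ± 12.6 TPM. Of the exonic bases of Srsf2, 25.3% are also covered by other genes, and of its last 500 transcript bases 92% are. The 1 low gene, Rbm4, had 0 counts in all 3 libraries, and 60.5% of its exonic bases are covered by another annotated gene.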
